A study of Mus musculus with 12 samples.

Results

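RNA in extracellular vesicles of wild-type mouse lung mesenchymal cells was set beside RNA of wild-type whole lung. The comparison took 8 of the 12 libraries of the series, namely the 4 vesicle and the 4 lung libraries that carry the wild-type label. All came from adult C57BL/6 mice, and no engineered allele or drug is given for them. The other 4 libraries, 2 of each source, carry a mutant label. The sample labels give their genotype as ColcreER with Tbx4flox/flox, the design text as Tbx4creER with Ghrflox/flox, so they are called mutant-labelled and serve here only as libraries in which the ranks were read again. Lungs were frozen whole. Vesicles were taken from the supernatant of cells cultured for 48 hours, and the labels do not say how the vesicles were separated from other material, how the cells were chosen, or how many animals or cultures went into a library. Errors are SD over 4 libraries, which may be technical replicates as far as the labels tell. The labels tie a cell culture to the vesicles and a tissue to the lung, and each source has its own table and depth, so source, culture, table and depth cannot be told apart.

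Extracellular vesicles are membrane particles that cells release, among them exosomes, which form inside endosomes, and larger particles shed from the cell surface. They carry protein and RNA of the cell that released them, often as fragments, and can be taken up by other cells. In the lung, mesenchymal cells such as fibroblasts and smooth muscle cells build the matrix and send growth factors to the epithelium and the vessels.

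Both tables held RPKM, a read count divided by exon length in kilobases and by the library's reads in M (megareads). Because the tables were normalized separately, RPKM values of both are printed side by side and no difference is drawn from them. Each gene was given its percentile rank within each library, over the 8096 genes that both tables list, so that a percentile gives the share of shared genes that lay lower in that library. A gene was said to rank higher in vesicles when its lowest vesicle percentile lay above its highest lung percentile and the means differed by at least 20 points, and to rank lower when the reverse held. No test was run across the tables, and these calls are descriptions. The vesicle libraries held 4.2 to 5.41 M reads in genes and the lung libraries 42.6 to 44.7 M, and a single read in a kilobase of exon made 0.185 to 0.238 RPKM in vesicles and 0.0224 to 0.0235 RPKM in lung. Of the shared genes, 572 to 791 stood at 0 in a vesicle library and 17 to 22 in a lung library. The vesicle libraries were also less alike than the lungs. Spearman's correlation across genes, which are not independent replicates, was 0.605 to 0.687 between vesicle libraries. It was 0.988 to 0.995 between lungs and 0.412 to 0.468 between a vesicle and a lung library. With lung reads thinned at random to 4.57 M, it was 0.981 to 0.988 between lungs, over 7906 genes.

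In all, 1506 of 8096 genes (18.6%) ranked higher in vesicles and 1350 (16.7%) ranked lower, and 240 and 279 of them by at least 50 points. The counts given below for gene lists are to be read beside these 2 shares. Ranks over all genes of each table, 21950 in lung, gave 149 higher and 3908 lower, so that the balance of the 2 directions holds only among the shared genes. In the mutant-labelled libraries 1200 of the 1506 (79.7%) had both vesicle libraries above both lungs, a pattern that 34.1% of all shared genes showed. Likewise 944 of the 1350 (69.9%) had both vesicle libraries below both lungs, against 31.2% of all shared genes. A percentile difference can come from few reads. Of the 1506 genes, 63 were listed at 0 in at least 1 vesicle library, because a tie at 0 reached up to percentile 4.89 there, and 475 of the 1350 had a wild-type vesicle mean under 2 RPKM and stood in the table through the mutant-labelled libraries.

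Genes of secreted signals were among the largest gains in rank. Gremlin 1 (Grem1, ENSMUSG00000074934, mm9 chromosome 2, 113586321 to 113598803), a secreted inhibitor of bone morphogenetic proteins, stood at 5396, 2573, 6762 and 4947 RPKM in vesicle libraries 1 to 4. In lungs 1 to 4 it stood at 0.994, 2.28, 1.44 and 1.65 RPKM. It was number 11 of the 8096 shared genes by vesicle mean (4919 ± 1745 RPKM) and number 7566 by lung mean (1.59 ± 0.535 RPKM), and the percentiles differed by 93.0 points. Inhibin beta A (Inhba, ENSMUSG00000041324, chromosome 13, 16103684 to 16119044), the subunit of activin A, stood at 309, 214, 284 and 225 RPKM in vesicles and at 0.45, 0.778, 1.07 and 0.576 RPKM in lung. Its vesicle values lay within a narrow band, and its percentile was 94.5 points higher than in lung.

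The gain with the largest size belonged to cholecystokinin (Cck, ENSMUSG00000032532, chromosome 9, 121398943 to 121404807), a peptide hormone of gut and brain. It stood at 606, 524, 1809 and 2167 RPKM in vesicles, on 2073 to 9933 reads, and at 0, 0.0336, 0.0326 and 0 RPKM in lung. Vesicle libraries 3 and 4 thus held more than libraries 1 and 2, and all 4 lay far above the lungs in rank (99.0 points). Dio2, the deiodinase that activates thyroid hormone, stood at 408, 492, 141 and 198 RPKM in vesicles and at 0.296 to 0.447 RPKM in lung. Crabp1, a retinoic acid binding protein, was the least even of these, at 874, 234, 33.3 and 166 RPKM in vesicles and 0.0861 to 0.581 RPKM in lung. Rspo3, a secreted enhancer of Wnt signalling (95.3 ± 51.3 RPKM in vesicles, 1.10 ± 0.132 in lung), Gdf11, a ligand of the TGF-beta family (67.2 ± 22.1 and 1.01 ± 0.158), and Dkk2, a secreted Wnt modulator (53.5 ± 26.5 and 1.01 ± 0.598), gained 85.2 to 88.8 points. Hsd3b6, a steroid dehydrogenase with near-identical relatives whose reads may be shared, stood at 35.3, 42.7, 333 and 110 RPKM in vesicles against 0.0650 to 0.0905 RPKM in lung. The short gene model Gm10126, at 62.3 to 156 RPKM in vesicles, is read with the same doubt. Among the 12 largest gains was also Arhgap11a (101 ± 33.5 and 2.0 ± 0.105 RPKM), which lies 71369 bases from Grem1.

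**Figure D1:**
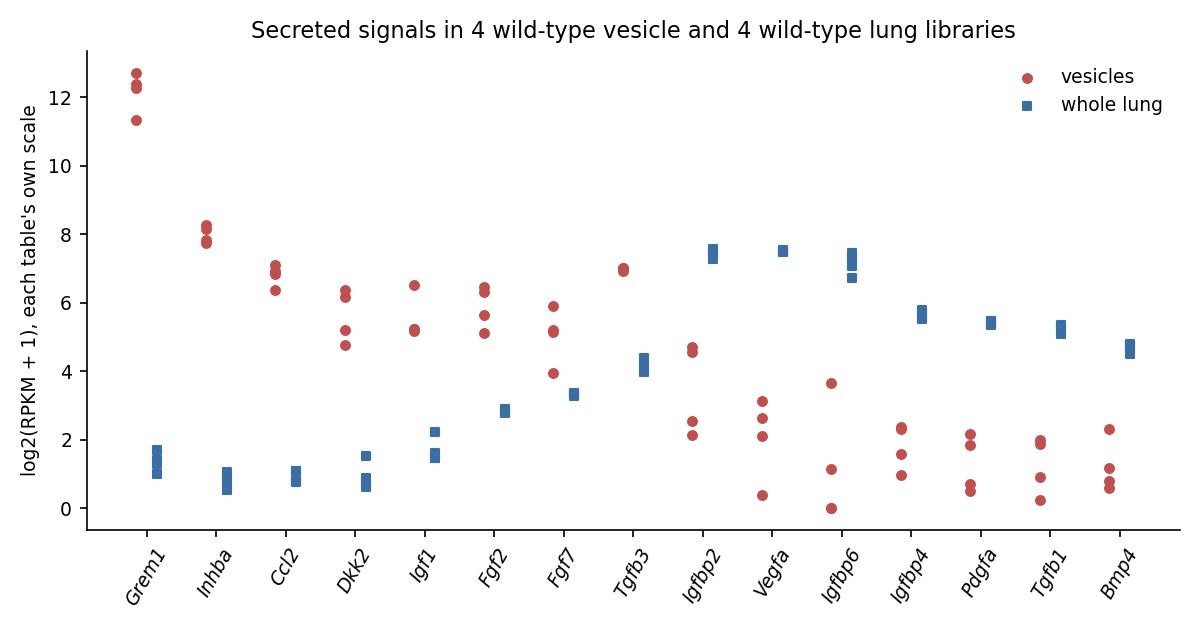
Each point is 1 wild-type library, with log2(RPKM + 1) on the vertical axis and secreted signals along the horizontal axis. Circles are the 4 vesicle and squares the 4 lung libraries, each on the scale of its own table. Grem1, Inhba and Ccl2 stand high in all 4 vesicle libraries, and Vegfa, Igfbp6 and Pdgfa high in all 4 lungs.

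Among the 27 listed genes of a list of 37 secreted growth factors and their inhibitors, 10 ranked higher and 8 lower, with a median difference of 2.5 points against 0.56 over all shared genes. The fibroblast growth factor genes Fgf2, Fgf7 and Fgf10 stood on the higher side. Fgf2, a factor with no classical secretion signal, stood at 33.7, 48.5, 77.9 and 86.7 RPKM in vesicles and 5.84 to 6.44 RPKM in lung, and Fgf7, which acts on epithelium, at 34.6, 59.5, 36.2 and 14.5 RPKM and 8.71 to 9.33 RPKM. Insulin-like growth factor 1 (Igf1) stood at 35.1, 36.9, 91.1 and 36.3 RPKM in vesicles and 1.74 to 3.70 RPKM in lung, a difference of 78.9 points. Tgfb3 was the most even, at 120 to 128 RPKM in vesicles and 14.8 to 20.1 in lung. Sfrp1, an inhibitor of Wnt signalling, ranged from 21.2 to 166 RPKM in vesicles and from 7.0 to 11 in lung. Fgf10, a signal of lung mesenchyme to epithelium, ranked higher by 22.3 points with RPKM means of 5.76 in vesicles and 6.01 in lung, each on its own table's scale, where the median shared gene stood at 4.68 to 5.44 RPKM in vesicles and 10.8 to 11 in lung. Under ranks over all genes of each table its difference was -12.4 points.

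On the lower side stood growth factors of vessels and fibroblasts and binding proteins of insulin-like growth factors. Vegfa, the main growth factor of vessels, stood at 3.28, 0.30, 7.82 and 5.17 RPKM in vesicles and at 179 to 185 RPKM in lung. Pdgfa, a growth factor for fibroblasts, stood at 0.415 to 3.51 RPKM and at 39.7 to 43.2 RPKM. Tgfb1 was at 0.182 to 3.0 RPKM in vesicles and 33.2 to 39.6 in lung, so that 2 members of the TGF-beta family, Tgfb1 and Tgfb3, lay on opposite sides. Bmp4, a ligand that Grem1 protein binds, fell in rank by 48.2 points (1.63 ± 1.62 RPKM in vesicles and 25.1 ± 2.23 in lung). Igfbp6, Igfbp4 and Igfbp2 ranked lower by 70.9, 52.1 and 33.3 points, and Igfbp3, at 30.1 RPKM in lung, was not listed in vesicles. The receptors of the growth hormone and insulin-like growth factor pathway lay the other way, with Ghr at 19.8 to 25.1 RPKM in vesicles and 11.8 to 13.3 in lung (26.0 points) and Igf1r at 8.36 to 19.1 and 8.47 to 10.8 RPKM (23.4 points, or -4.23 under ranks over all genes of each table). Of the 15 listed genes of that pathway 5 ranked higher and 3 lower.

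Chemokines and cytokines counted 8 higher and 2 lower of 15 listed (53.3% and 13.3%, beside 18.6% and 16.7% over all shared genes). The median difference was 23.9 points (-5.61 under ranks over all genes of each table). Of the 8, 6 were above 0 in every vesicle library. The other 11 of the 26 genes, among them Ccl5 and Il33, were not listed. The listed genes had a median percentile of 7.99 in lung. A gene is listed only where a vesicle group mean reached 2 RPKM, so listed genes that low in lung lean higher by selection. Ccl2, which draws monocytes (ENSMUSG00000035385, chromosome 11, 81849073 to 81850955), stood at 113, 137, 82.2 and 120 RPKM in vesicles and 0.698 to 1.12 RPKM in lung. The related Ccl7 stood at 53.8, 9.10, 116 and 14.5 RPKM and 0.465 to 0.976 RPKM. Il6 stood at 1.29, 3.71, 8.92 and 1.68 RPKM and 0.0474 to 0.164, and the macrophage growth factor Csf1 at 17.0 to 27.9 and 7.84 to 11.1 RPKM. Cxcl14 (0 to 16.6 RPKM in vesicles, 82.8 to 102 in lung) and Cxcl16 (0 to 4.33 and 25 to 31.5) ranked lower. Interferon-response genes showed 8 higher and 1 lower of 23 listed (34.8% and 4.35%), and 5 of the 28 genes were not listed. In the mutant-labelled libraries the median percentile of this list was 41.5 and 72.0 in vesicles and 53.0 and 60.7 in lung. That of the chemokine and cytokine list was 11.1 and 58.2 in vesicles and 18.3 and 5.79 in lung. In both lists the 2 sources thus overlapped there. Ifit1 stood at 61.9, 78.0, 6.10 and 39.3 RPKM in vesicles and 4.0 to 7.89 in lung.

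Markers of the labelled cell type were present in part. Of 15 smooth muscle genes 13 were listed, and their median percentile was 89.2 to 94.4 in the vesicle libraries and 89.9 to 92.5 in the lungs. Acta2, smooth muscle actin, stood at 739, 773, 1293 and 1015 RPKM in vesicles and 153 to 235 in lung, and Tagln at 161 to 418 and 113 to 171 RPKM. These 2 genes lay near the top of both sources, and only Lmod1 and Synpo2 ranked higher (Synpo2 by 25.9 points, or -8.76 under ranks over all genes of each table), while Des, desmin, ranked lower (0.814 to 8.91 RPKM against 59.6 to 91.4). Of 18 markers of alveolar fibroblasts, 9 were listed, of which 1 ranked higher (Fgf10), 2 ranked lower (Pdgfra and Limch1) and 6 neither, with a median difference of -8.38 points. Pdgfra, their receptor marker, stood at 3.59, 1.14, 3.46 and 0.788 RPKM in vesicles and 33.8 to 42.4 in lung and ranked lower by 51.2 points. Inmt (851 RPKM in lung), Ces1d (266), Npnt (150) and Tcf21 (55.5) were not listed. Of 22 mesenchymal transcription factors 8 were listed, 3 higher, 2 lower and 3 neither. Prrx1 (4.46 to 17.1 RPKM in vesicles and 1.82 to 2.34 in lung), Gli3 (1.42 to 8.68 and 0.857 to 1.06) and Osr1 (31.1 points, or -1.90 under ranks over all genes of each table) were higher and Tbx3 and Nr2f2 lower. Tbx4, Tbx2 and Foxf1, at 28.7, 108 and 85.2 RPKM in lung, were not listed in vesicles. The pericyte list had 3 of 12 members listed, with Pdgfrb at 0.774 to 4.25 RPKM and 32.9 to 43.1 RPKM.

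Genes of activated fibroblasts and of the matrix lay on both sides, as the shared genes did in general. Of 17 listed genes of activated fibroblasts 5 ranked higher and 4 lower (29.4% and 23.5%, beside 18.6% and 16.7% over all shared genes). Their median difference was 1.29 points, beside 0.56 over all shared genes. The protease inhibitor Timp1 stood at 195, 73.9, 254 and 169 RPKM in vesicles and 4.56 to 10.2 in lung, tenascin C (Tnc) at 16.4, 5.41, 21.0 and 11.7 RPKM and 2.01 to 4.37, and the thrombospondin gene Thbs2 at 2.13 to 29.8 RPKM and 0.256 to 0.516. Periostin (Postn) lay the other way, at 1.34 to 9.98 RPKM in vesicles and 29.3 to 45.4 in lung. Of the 27 collagen genes 11 were listed, 4 higher and 4 lower (36.4% each). Those that ranked higher were Col8a1 (11 to 20.9 and 4.37 to 4.84 RPKM), Col12a1, Col11a1 and Col5a2 (-5.13 points for Col5a2 under ranks over all genes of each table). Those that ranked lower were the basement membrane chains Col4a1 (1.70 to 13.0 RPKM in vesicles, 121 to 145 in lung) and Col4a2 (0.607 to 4.72 and 105 to 131), with Col6a1 and the fibrillar Col3a1 (4.38 to 16.3 and 43.8 to 54.5). Other matrix glycoproteins counted 6 higher and 5 lower of 24 listed (25% and 20.8%, with a median difference of 0.58 points). Among the latter the basement membrane proteoglycan genes Agrn and Hspg2 ranked lower by 62.2 and 48.7 points.

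**Figure D2:**
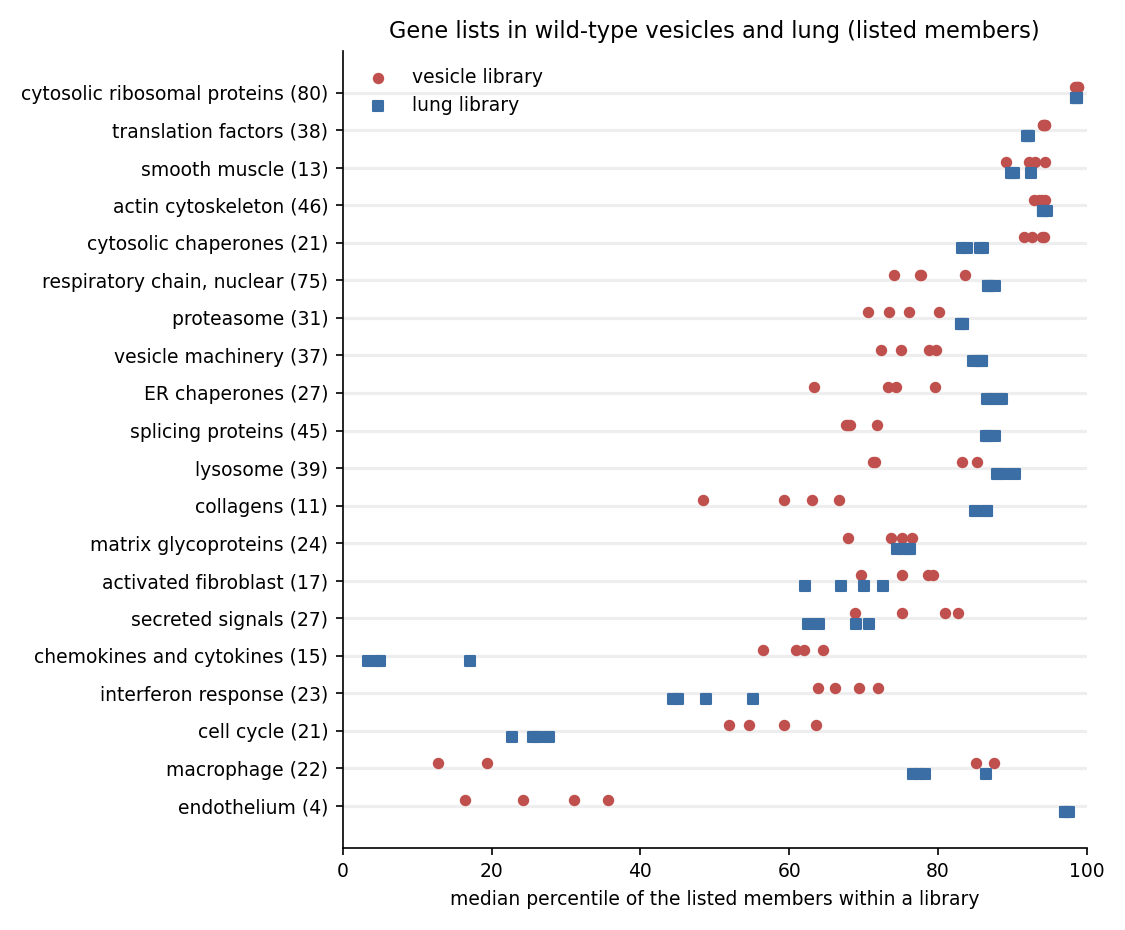
Each point is the median percentile of the listed members of a gene list in 1 wild-type library, circles for vesicles and squares for lung, with the number of listed members in brackets. Ribosomal protein genes stand near the top in both, chemokines, interferon response and cell cycle lie further right in vesicles, and the vesicle libraries split into a low and a high pair for macrophage genes.

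The most abundant vesicle RNAs were of other kinds. Gm20594, a gene model on chromosome 6 of which the annotation used here gives no exons, stood at 61396, 81733, 57115 and 60588 RPKM, or 13.1% to 17.4% of all RPKM of a vesicle library, and at 132 to 180 RPKM in lung. The genes Npm1 (nucleophosmin, 7589 ± 1753 RPKM in vesicles and 85.7 ± 5.68 in lung), Lars2 (the mitochondrial leucyl-tRNA synthetase, 7205 ± 1524 and 116 ± 6.06) and Rpl10a (4968 ± 1533 and 143 ± 13.4) stood at numbers 6, 8 and 10 by vesicle mean and at 421, 301 and 223 by lung mean. Such genes cannot gain 20 points because they lie near the top in lung already. Npm1 and Rpl10a have processed pseudogenes that may share reads, and Gm20594 and Lars2 were not checked for shared sequence. The 80 cytosolic ribosomal protein genes were all listed and none ranked higher or lower, with a median percentile of 98.4 to 98.8 in vesicles and 98.5 to 98.7 in lung.

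The transcripts of mitochondrial DNA took 11.8%, 30.7%, 20.8% and 11.2% of the RPKM of vesicle libraries 1 to 4 and 13.3% to 18.3% of a lung. None of its 13 genes was called, and 12 of them differed by 1.09 points or less, but their order was not the same in the 2 sources. The oxidase subunit mt-Co1 stood at 33737 ± 21242 RPKM in vesicles and 10231 ± 1392 in lung, whereas mt-Nd3, a short subunit gene of complex I, stood at 49.4, 45, 41.7 and 56.3 RPKM in vesicles and 1910, 1688, 1137 and 1494 RPKM in lung. mt-Nd3 was thus number 750 of the 8096 genes by vesicle mean and number 16 by lung mean.

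Several lists of housekeeping genes had medians below 0. Of 75 listed nuclear genes of the respiratory chain 2 ranked higher and 14 lower, with a median difference of -12.1 points. The share that ranked lower, 18.7%, was near the 16.7% of all shared genes, and the share that ranked higher was 2.67% beside 18.6%. Ndufb3 stood at 2.18 to 10.2 RPKM in vesicles and 41.5 to 46.7 in lung. Of 45 listed splicing and nuclear RNA-binding protein genes 0 ranked higher and 17 lower (median -16.5 points), among them Snrpb, a core protein of the spliceosome (0.121 to 11.4 and 60.9 to 67.2 RPKM), and Ddx5 (10.4 to 22.2 and 215 to 229). Of 27 listed chaperones and translocation genes of the endoplasmic reticulum 0 ranked higher and 9 lower (median -12.3 points), with Pdia6 at 0.768 to 1.73 RPKM in vesicles and 48.6 to 70.9 in lung. Translation factors differed from these in their median difference, which was 2.84 points. Of 38 listed, 5 ranked higher and 3 lower (13.2% and 7.89%), both below the 18.6% and 16.7% of all shared genes. Their median percentile was 94.1 to 94.4 in vesicles and 92.0 to 92.3 in lung, and a gene that high in lung could not be called higher. Eif5b stood at 128 to 191 RPKM in vesicles and 20.8 to 25.1 in lung, and Eif3b at 0.705 to 7.79 and 47.3 to 49.1 RPKM. Of 37 listed genes of vesicle formation and cargo, whose proteins are often used as vesicle markers, 0 ranked higher, beside 18.6% of all shared genes, and 7 lower (18.9%, near the 16.7% of all shared genes), with a median difference of -11.3 points. They included the tetraspanin Cd9 (7.24 to 34.5 RPKM in vesicles, 139 to 181 in lung), the ESCRT genes Chmp1a and Vps4a (0.262 to 0.908 and 19.2 to 21.0 RPKM for the latter) and Mfge8, lactadherin (2.52 to 22.6 and 116 to 143). These are values of the RNA, not of the protein.

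Cell cycle genes counted 8 higher and 0 lower of 21 listed, with a median difference of 18.7 points. The shares were 38.1% and 0%, beside 18.6% and 16.7% over all shared genes. The other 10 of the 31 genes, among them Cdk1, Plk1, Aurka and Mcm2, were not listed in vesicles. The listed cell cycle genes had a median percentile of 25.9 in lung. A gene is listed only where a vesicle group mean reached 2 RPKM, so listed genes low in lung lean higher by selection. Those lowest in lung could not be called lower. The shares over all shared genes are therefore no like background for this list. Mki67, a marker of dividing cells, stood at 2.04, 10.4, 11 and 11.9 RPKM in vesicles and 1.27 to 1.77 RPKM in lung. Ccnd2, cyclin D2, stood at 795, 451, 494 and 779 RPKM in vesicles and 18.3 to 23.4 in lung, and Top2a at 1.76 to 6.40 and 1.19 to 1.41 RPKM. Histone genes split by type, 9 higher and 7 lower of 24 listed. Hist1h2bk, from a histone cluster, stood at 12.2 to 16.5 RPKM in vesicles and 1.97 to 3.05 in lung, and the variant gene H3f3b at 5.23 to 22.5 and 231 to 304 RPKM. Histone genes are near copies of each other, so reads may be split between them. Immediate early genes, the first to be transcribed after a stimulus, counted 3 higher and 7 lower of 16 listed. Jun (0.174 to 15.1 RPKM in vesicles, 75.2 to 89.1 in lung) and Jund (0.0776 to 11.4 and 124 to 148) ranked lower, while Maff stood at 167, 50.5, 277 and 264 RPKM in vesicles and 11 to 13.7 in lung.

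Of 11999 lung genes with a wild-type mean of at least 2 RPKM, 4591 (38.3%) were not listed in the vesicle table. The table holds only genes whose larger group mean reached 2 RPKM, so not listed gives no level. The share fell from 61.7% at 2 to 5 RPKM in lung to 13.7% at 50 to 100 RPKM and was 15.1% at 100 to 1000 RPKM and 25% (7 of 28 genes) above that. In bulk lung RNA, fewer cells of a type and less RNA per cell cannot be told apart. For a gene not listed, the cells in the culture, release of its RNA, the listing rule and depth cannot be told apart either.

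**Figure D3:**
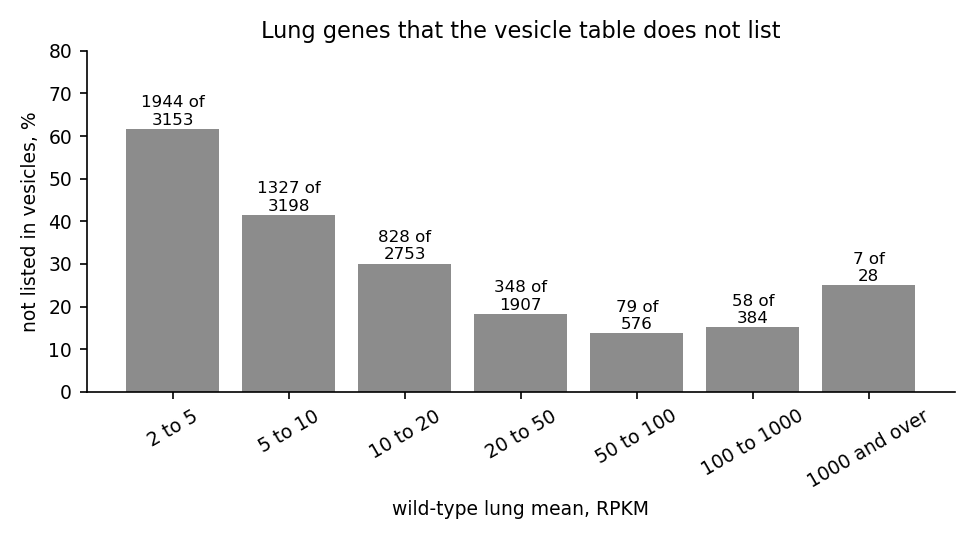
Bars give the percentage of lung genes that the vesicle table does not list, by their wild-type lung mean in RPKM, with the numbers of genes above each bar. The share fell from 61.7% at 2 to 5 RPKM to 13.7% at 50 to 100 RPKM and was 25% in the highest class.

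Genes of epithelium led the lung genes that were not listed. Scgb1a1, the secretoglobin of club cells, stood at 43595, 51343, 48543 and 61259 RPKM in lung and led that source. Sftpc, the surfactant protein of alveolar type 2 cells, stood at 12308, 10555, 13815 and 10397 RPKM. Cbr2 and Cyp2f2, enzymes of club cells, followed at 2664 and 1787 RPKM, then the surfactant genes Sftpb and Sftpa1 at 1694 and 1095 RPKM and Ager, of alveolar type 1 cells, at 888 RPKM. By list, 2 of 15 alveolar type 2, 5 of 16 type 1, 3 of 13 club and 4 of 15 ciliated markers were listed. Of these 14 genes none ranked higher and 11 ranked lower. The median lung percentiles of the listed members were 93.4, 97.8, 80.7 and 90.7, and genes that high in lung could not be called higher. Endothelial markers were listed in 4 of 20 cases, and all 4 ranked lower by a median of 70.4 points. Eng, endoglin, stood at 2.29, 1.18, 1.25 and 0.0972 RPKM in vesicles and 142 to 171 in lung. Cldn5, Cdh5 and Pecam1, at 277, 212 and 112 RPKM in lung, were not listed. B cell markers were listed in 0 of 10 cases and heart muscle markers in 2 of 15, both ranked lower.

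Among the 12 largest losses most vesicle values were at or near 0. The mucin gene Muc1 stood at 0 in all 4 vesicle libraries and at 87.4 to 131 RPKM in lung. Dpep1, Smad6, Prx and Atp2a3 were also at 0 in all 4 vesicle libraries, with lung means of 45.8 to 61.9 RPKM. Coro1a and Srgn, genes of leukocytes, were above 0 only in vesicle library 3, at 0.0862 and 0.542 RPKM. Tmem100, an endothelial gene, stood at 0, 0, 8.76 and 0.209 RPKM in vesicles and 191 to 209 in lung. Such genes entered the vesicle table through a higher mean in the mutant-labelled libraries, or, for Tmem100, through vesicle library 3.

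Macrophage genes were the exception in listing among the cell types outside the mesenchyme, since 22 of 24 were listed. They separated the vesicle libraries, with a list median percentile of 19.4 in library 1, 85.2 in library 2, 87.5 in library 3 and 12.8 in library 4, while the lungs stood at 76.6 to 86.5. The cathepsin gene Ctss stood at 0.329, 232, 92.4 and 0 RPKM in vesicle libraries 1 to 4 and at 94.4 to 207 RPKM in lung. The complement gene C1qb stood at 0, 45.9, 140 and 0 RPKM, Lyz2 (lysozyme) at 140, 2415, 1977 and 20.6 RPKM and Spp1 (osteopontin) at 115, 2480, 3110 and 24.9 RPKM. Vesicle libraries 2 and 3 were thus high and libraries 1 and 4 low in each of these genes. The pattern was not shared by every member: Apoe stood at 0.817 to 12.1 RPKM in vesicles against 220 to 315 RPKM in lung, and Itgax at or near 0. A gene could be listed through the mutant-labelled vesicles alone, as Itgax was, so the 22 listed are no measure of wild-type vesicles. In all, 0 macrophage genes ranked higher, beside 18.6% of all shared genes. Lower ranks were found for 4 (18.2%, near the 16.7% of all shared genes). In the mutant-labelled vesicle libraries the list medians were 95.1 and 90.9. Libraries 2 and 3 also held the most mitochondrial RNA. The part of either in the other results was not tested. Without these 2 libraries 1381 of the 1506 genes that ranked higher and 1214 of the 1350 that ranked lower were still called. Leaving libraries out cannot make the groups overlap, so a call could be lost only through the mean difference. These counts therefore do not show the part of either.

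**Figure D4:**
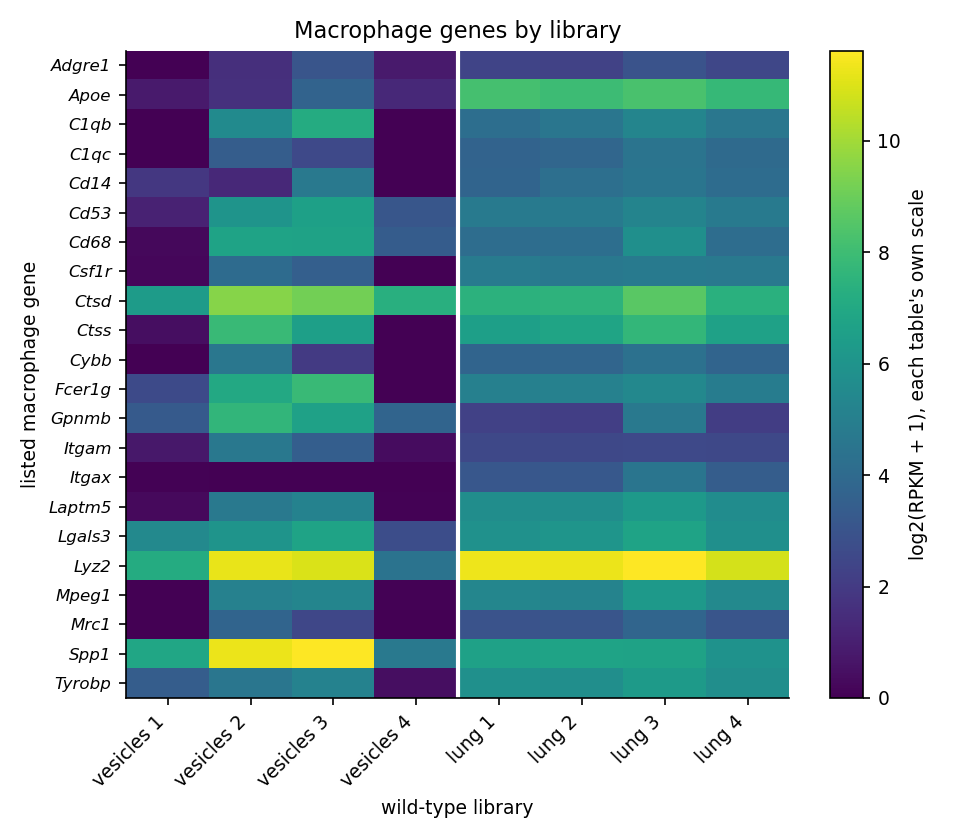
Each cell gives log2(RPKM + 1) of a listed macrophage gene (rows) in a wild-type library (columns), each source on the scale of its own table. Vesicle libraries 2 and 3 are bright and libraries 1 and 4 dark for most genes, and the 4 lungs resemble each other.

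The spread between vesicle libraries bounds what can be read from a single gene. At a mean of 2 to 5 RPKM, a median of 41.2 reads per library and gene in vesicles and 653 in lung, the SD of the percentile was 18.8 points in the median vesicle gene and 1.21 in the median lung gene. At 100 RPKM and over it was 0.54 and 0.14 points. Of the 1615 genes with a vesicle mean of at least 20 RPKM, 146 spanned 10-fold or more between the 4 libraries and 8 of these were at 0 in a library, against 1 of 2403 genes at that level in lung. The least even genes at a vesicle mean of 10 RPKM or more were C1qb, Ctss, C3ar1, Mpeg1 and Anpep, which macrophages are known to express, the Y-linked Eif2s3y, 2410015M20Rik and the airway gene Scgb3a1. Eif2s3y stood at 52.6, 35.2, 0.115 and 0 RPKM in vesicles 1 to 4 and at 15.5, 15.7, 0.00536 and 0 RPKM in lungs 1 to 4, so that libraries 1 and 2 of both sources carried Y-linked RNA. Scgb3a1 stood at 99.3 RPKM in vesicle library 1 and at 0 in the other 3.

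**Figure D5:**
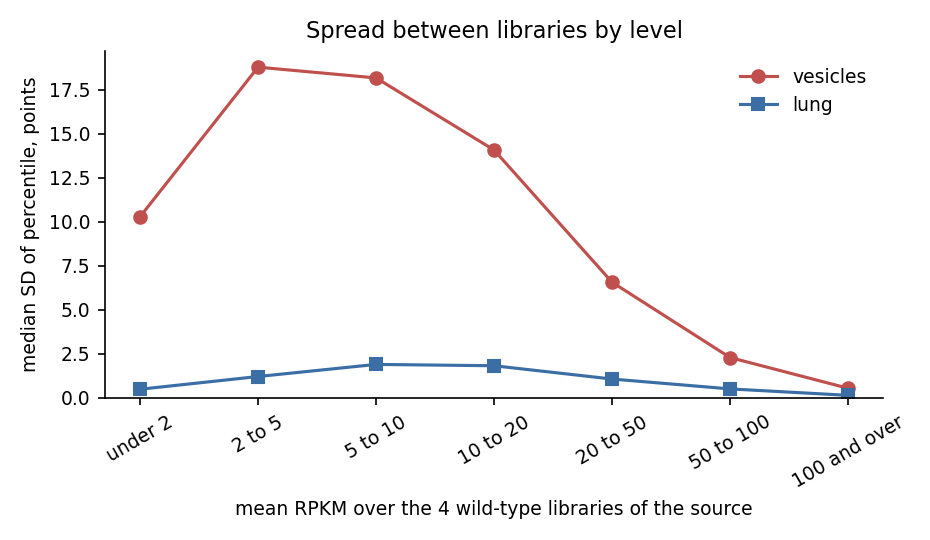
The lines give the median SD of a gene's percentile over the 4 wild-type libraries of a source, in percentile points, by the mean RPKM of the gene in that source. Vesicles (circles) lie above lung (squares) in every class and fall to 0.54 points at 100 RPKM and over.

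Exon length went with the calls. The 7906 shared genes with an annotated exon length were cut into 5 classes of like size. Genes in the shortest class (75 to 1928 bases of exon) ranked higher in 14.4% of cases and lower in 16.4%, and genes in the longest class (6272 bases and over) in 27.1% and 12.9%. Level differed too, with medians in the shortest and longest class of 17.6 and 7.54 RPKM in lung and 10.2 and 4.03 RPKM in vesicles. A gene lower in lung has more room to rank higher, and the part of level was not tested. Ranks within these classes gave 1461 higher and 1375 lower, of which 1335 and 1217 were called without this step too. Lung genes at 10 to 50 RPKM were cut by length in the same way into 5 classes of 914 genes, and 27.8% of the shortest and 22.1% of the longest class were not listed in vesicles.

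Only 10 shared genes stood at 0 in all 4 lungs. The highest in vesicles was Prl3a1, a prolactin-family gene, at 26.1, 7.23, 14.3 and 161 RPKM on 45 to 1162 reads. Gzme and Gzmd, granzyme genes that are near copies of each other, were at 0 in vesicle libraries 1 and 2 and at 40.3 and 29.7 RPKM in library 4. The beta-defensin gene Defb3 was likewise at 0 in libraries 1 and 2 and at 16.5 and 23.5 RPKM in libraries 3 and 4.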

How the data were processed

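RNA was sequenced from 4 wild-type vesicle and 4 wild-type whole-lung libraries, and groups were read from the labels. The authors deposited 1 table of RPKM per source. The headers name no unit, so RPKM was read from the values: 49.6% to 57.5% of low vesicle values and 72.5% to 74.1% of low lung values were whole multiples, to a tolerance of 0.05, of what a single read is worth. Per the submitters' processing notes, TopHat2, HTSeq and the mm9 build were used. Their versions, the annotation and the strand setting are all not given in the sources used here, so that overlapping or antisense genes cannot be told apart. Replicates may be technical.

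The tables were joined on Ensembl ID (all 8096 vesicle genes matched), after repair of 15 and 27 symbols turned into dates. Reads per library came from the value of a single read. Percentile ranks within a library gave ties their mean rank. The code that makes the calls, at 20 points without overlap, was tested on simulated data. Exon lengths came from GENCODE M1 (7906 of 8096 shared genes, 20462 of 21950 lung genes). Genes were named from the largest gains and losses (mean log2(RPKM + 1) of at least 5 in the higher source), the highest and least even genes and the extremes of each list, and other genes, and the values shown, were chosen after they were seen. Members and lists were chosen with earlier results of these data known. Alternatives were ranks over all genes of each table, other minimum differences, log2 values, filters, length classes, thinned lung reads, a replicate block and left-out libraries. There were 0 other value columns, and a gene of the interferon list is not reported here. Python 3.11.15, numpy 2.4.6, pandas 2.3.3 and matplotlib 3.10.9 were used.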

Additional observations from a re-analysis of the deposited data

Results flagged for a closer look

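A single library stood far from the other 3 in 26 of 306 groups of 4 values (8.50%), taken over the named genes, gene lists and library measures, 16 in vesicles and 10 in lung. The measure was the gap to the nearest other library as a share of the whole range, past Dixon's critical value for 4 samples, which chance passes in about 1 in 20 groups. The genes were not chosen at random and libraries are shared, so the count is a description. In 4 of the 26 the other 3 libraries were at 0, where any read passes this measure, which leaves 22.

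In vesicle library 4, values far above the other 3 were found for Prl3a1 (161 RPKM), Gzme (40.3), Gzmd (29.7), Igfbp6 (11.6), Fmn1 (8.79) and Agrn (4.67). Igfbp6 and Agrn ranked below lung in every vesicle library all the same. In vesicle library 3 they were Igf1 (91.1 RPKM), Apoe (12.1), Jund (11.4), Tmem100 (8.76), Srgn (0.542) and Coro1a (0.0862). The values of Srgn and Coro1a rest on 5 reads and 1 read. Vesicle library 1 stood apart with Scgb3a1 (99.3 RPKM) and Itgax (0.0552), both at 0 in the others, above them and Mki67 (2.04 RPKM) below the others. Its median percentile of splicing and nuclear RNA-binding protein genes was 71.8, against 68.2 in the nearest library.

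Lung 3 held the highest values of Sftpb (1844 RPKM), Ctss (207), Itgax (22.0) and Igf1 (3.70) and the lowest of Gm20594 (132). Its list medians were the highest for macrophage genes (percentile 86.5) and for chemokines and cytokines (17.1). Lung 1 was highest for Pdgfra (42.4 RPKM). Lung 4 was lowest for Spp1 (60.2 RPKM) and highest in the smooth muscle list (percentile 92.5). Of these genes, Igf1 and Itgax stood apart in both sources.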

How the results depend on the processing

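Ranks over all genes of each table gave 149 higher and 3908 lower instead of 1506 and 1350, and 44 instead of 29 of the gene lists had a median below 0. They also turned the median of the chemokine list to -5.61 points and the differences of Col5a2, Dph6, Fgf10, Igf1r, Osr1 and Synpo2 to -5.13, -11.8, -12.4, -4.23, -1.90 and -8.76. In this setting the lung ranks cover 21950 genes and the vesicle ranks 8096. A minimum of 30 points left 898 higher. With a lung minimum of 5 or 10 RPKM, 2647 or 1320 genes were not listed instead of 4591. Spearman's correlation between mean percentiles across genes, 0.508 as reported, was 0.374 among genes of at least 5 RPKM and 0.478 without vesicle libraries 2 and 3. The cause was not tested.

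Leaving out 1 library at a time gave 1511 to 1649 higher, 1352 to 1525 lower, 4577 to 4603 not listed and a correlation of 0.488 to 0.509. A replicate block, in which all 4 same-numbered pairs had to move the same way, gave 1565 higher and 1415 lower. The labels tie no number to an animal or batch, and same-numbered deviations correlated at 0.0474, -0.0593, 0.0865 and 0.0662, so the libraries were not treated as paired. Y-linked RNA was read in libraries 1 and 2 of both sources, so a link cannot be told from these correlations. Lung reads thinned to 4.57 M gave 1435 and 1284. Genes listed at 0 given the lowest rank left 1443 higher. No called gene took the opposite call under any alternative run. Left-out libraries, other minimum differences and the replicate block could not give an opposite call, since groups without overlap stay so. A mean under 5 RPKM in vesicles rests on few reads.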

Other observations

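Families taken by the start of their symbols were chosen after values were seen, and their counts stand beside 18.6% higher and 16.7% lower over all shared genes. Of 36 listed genes with a symbol that begins with Hist, which lie mostly in histone clusters, 25 ranked higher in vesicles and 1 lower, with a median difference of 39.7 points and median levels of 9.47 RPKM in vesicles and 2.07 RPKM in lung. Of the 25, 24 were above 0 in every vesicle library. Listed genes this low in lung lean higher by selection, and those lowest in lung could not be called lower. The shares over all shared genes are therefore no like background for them. Kinesin motor genes (symbols with Kif) counted 9 higher and 0 lower of 19, and centrosomal protein genes (Cep) 11 higher and 0 lower of 20. Median levels of Kif genes were 6.87 RPKM in vesicles and 5.90 in lung, and those of Cep genes 3.22 and 4.16 RPKM. Symbols with Ppp, mostly subunits of protein phosphatases, counted 1 higher and 12 lower of 37, and symbols with Atp, mostly ion pumps and ATP synthase subunits, 1 higher and 13 lower of 49. Median levels of Ppp genes were 6.41 RPKM in vesicles and 23.2 in lung, and those of Atp genes 14.6 and 34.5 RPKM. Histone genes are near copies of each other, and reads may be split between them.

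The surroundings of Grem1 were read next, also after its values were seen. Within 1 Mb on each side lie 11 protein-coding genes of the lung table, Grem1 included, and the vesicle table lists 5 of them. Fmn1, the formin 1 gene, 29396 bases away, stood at 3.92, 4.68, 3.95 and 8.79 RPKM in vesicles and at 0.413 to 0.563 RPKM in lung, a difference of 48.3 points. Scg5, the nearest neighbour at 17715 bases, stood at 0.208 RPKM in lung and was not listed. Dph6, 743348 bases away, ranked higher by 25.4 points (-11.8 under ranks over all genes of each table), and Aqr (0.204 to 1.38 RPKM in vesicles, 4.29 to 4.90 in lung) was not called. Without Grem1, on which the window was centred, 3 of 4 listed genes ranked higher, beside 18.6% of all shared genes. Arhgap11a, 1 of the 3, was already known from the largest gains. These 3 stood at 0.485 to 2.41 RPKM in lung. A gene is listed only where a vesicle group mean reached 2 RPKM, so listed genes that low in lung lean higher by selection. The share over all shared genes is therefore no like background, and nothing is concluded about the surroundings of Grem1.

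Neutrophil markers gave a single high gene. Mmp8, a collagenase that neutrophils store and that fibroblasts can also make, stood at 17.9, 19.2, 54.2 and 74.9 RPKM in vesicles and at 1.15 to 2.51 RPKM in lung, whereas 12 of the 14 genes of that list were not listed in vesicles.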
